A study of Mus musculus with 16 samples.

Results

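The mRNAs of the muscle and mesenchymal intermediate filament proteins and of the nuclear lamins were followed in C2C12 cells, mouse myoblasts that fuse into myotubes when differentiated. The 8 genes were taken by symbol from the deposited table, which lists 31053 genes. They are desmin (Des), vimentin (Vim), nestin (Nes), synemin (Synm), the lamins Lmna, Lmnb1 and Lmnb2, and plectin (Plec), and 7 of the 8 passed the filter on low values that left 10767 genes for testing. The 16 samples fell into 4 groups of 4 by their titles, namely WT myoblasts (UNDIFF), WT myotubes (DIFF), Fam134b KO myoblasts and Fam134b KO myotubes. Fam134b encodes an ER-phagy receptor, and the KO line was made with a lentiviral CRISPR-Cas9 vector and antibiotic selection. Whether it is 1 clone is not given in the sources used here. All groups were grown in DMEM with FBS, the labels state no day of culture, and the field for genotype reads unknown throughout. The labels call the samples biological replicates. The study's methods call the replicates of its experiments independent in general, and neither source says for these samples whether they were separate cultures. The p-values measure the spread between these samples, which may be technical.

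Intermediate filaments are rope-like polymers built from dimers of a shared rod domain. Vimentin is the filament protein of mesenchymal cells and of proliferating myoblasts, desmin is that of muscle and ties the Z-discs of neighbouring myofibrils together, and nestin and synemin do not build filaments alone but join those of vimentin or desmin. Plectin is the large linker that fastens such filaments to Z-discs, mitochondria, the plasma membrane and the nucleus, while lamins A and C (both from Lmna) and the B-type lamins line the inner face of the nuclear envelope.

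Fam134b itself had normalized counts of 27.5 ± 5.49 (SD, n = 4) in KO myoblasts and 41.8 ± 14.0 in KO myotubes, beside 207 ± 42.0 in WT myoblasts and 232 ± 61.6 in WT myotubes. A normalized count is the number of reads of a gene divided by a factor of its sample. Between 1484750 and 3287461 reads were counted on genes per sample, and 2 of the 4 KO myotube samples, replicates 2 and 4, had the fewest reads. Each sample's distance from its group mean, as the root mean square over tested genes on the log2 scale, lay between 0.448 and 0.691 for KO myotubes and between 0.260 and 0.440 for all other samples. The labelled stages were checked with 10 markers of differentiated muscle. All 10 were called higher in myotubes than in myoblasts in both genotypes, beside 13.8% of all genes tested in WT and 17.3% in KO cells. Their summed normalized count was 19.2 to 24.1 in KO myoblasts, 12936 to 17068 in KO myotubes, 1880.4 to 2807 in WT myoblasts and 29719 to 44327 in WT myotubes. The muscle regulator Myog was at 0 in all 4 KO myoblast samples.

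The 8 genes lie on 7 chromosomes, and the start regions of desmin and vimentin are shown. That of desmin was named in the plan of the work. Coordinates are those of GRCm38, the build (mm10) named in the submitters' processing notes. Desmin is at chr1:75360329-75368579 (plus strand), vimentin at chr2:13573927-13582826 (plus), synemin at chr7:67730160-67759742 (minus), Lmnb2 at chr10:80901203-80918245 (minus) and plectin at chr15:76170974-76232574 (minus). Nestin at chr3:87971078-87980451 (plus) and Lmna at chr3:88480147-88509956 (minus) are separated by 500 kb. Below are the 250 bases before and 50 bases from the RefSeq start of each gene, at chr1:75360042-75360341 for desmin and chr2:13574061-13574360 for vimentin, both plus strand, where capitals mark E-boxes (CANNTG) in desmin and the TATAAA box in vimentin.
Des: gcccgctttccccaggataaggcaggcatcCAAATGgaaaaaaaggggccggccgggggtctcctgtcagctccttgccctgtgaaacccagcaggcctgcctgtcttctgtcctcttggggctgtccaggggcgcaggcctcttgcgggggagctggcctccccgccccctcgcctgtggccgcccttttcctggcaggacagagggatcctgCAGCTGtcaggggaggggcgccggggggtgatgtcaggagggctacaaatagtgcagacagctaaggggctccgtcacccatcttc
Vim: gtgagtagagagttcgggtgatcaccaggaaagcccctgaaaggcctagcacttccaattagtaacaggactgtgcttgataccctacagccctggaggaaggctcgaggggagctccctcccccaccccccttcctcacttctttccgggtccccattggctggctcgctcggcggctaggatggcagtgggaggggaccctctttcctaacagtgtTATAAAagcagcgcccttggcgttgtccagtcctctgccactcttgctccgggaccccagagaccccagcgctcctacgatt
The E-box, the site of MYOD-family factors, reads the same on both strands in this form and was found at 2 places of the desmin window, 220 and 36 bases before the start, and at 0 places of the vimentin window. Some 72.3% of 32851 RefSeq promoter windows of the same length hold at least 1 E-box. The vimentin window holds TATAAA 32 bases before the start and the desmin window does not hold it on either strand. It is present in 13.6% of all windows. The MEF2 box and the CArG box, searched on both strands by their usual consensus, are in 3.19% and 1.63% of all windows and in 0 of the desmin, vimentin, nestin and Lmna windows. The nestin and Lmna windows hold neither an E-box nor TATAAA. E-boxes are not particular to desmin among the members, as the synemin window holds 1 and the Lmnb2 windows hold 4 and 1. These are matches of letters only. Lmnb1 and Plec have no entry in the table of promoters.

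**Figure D1:**
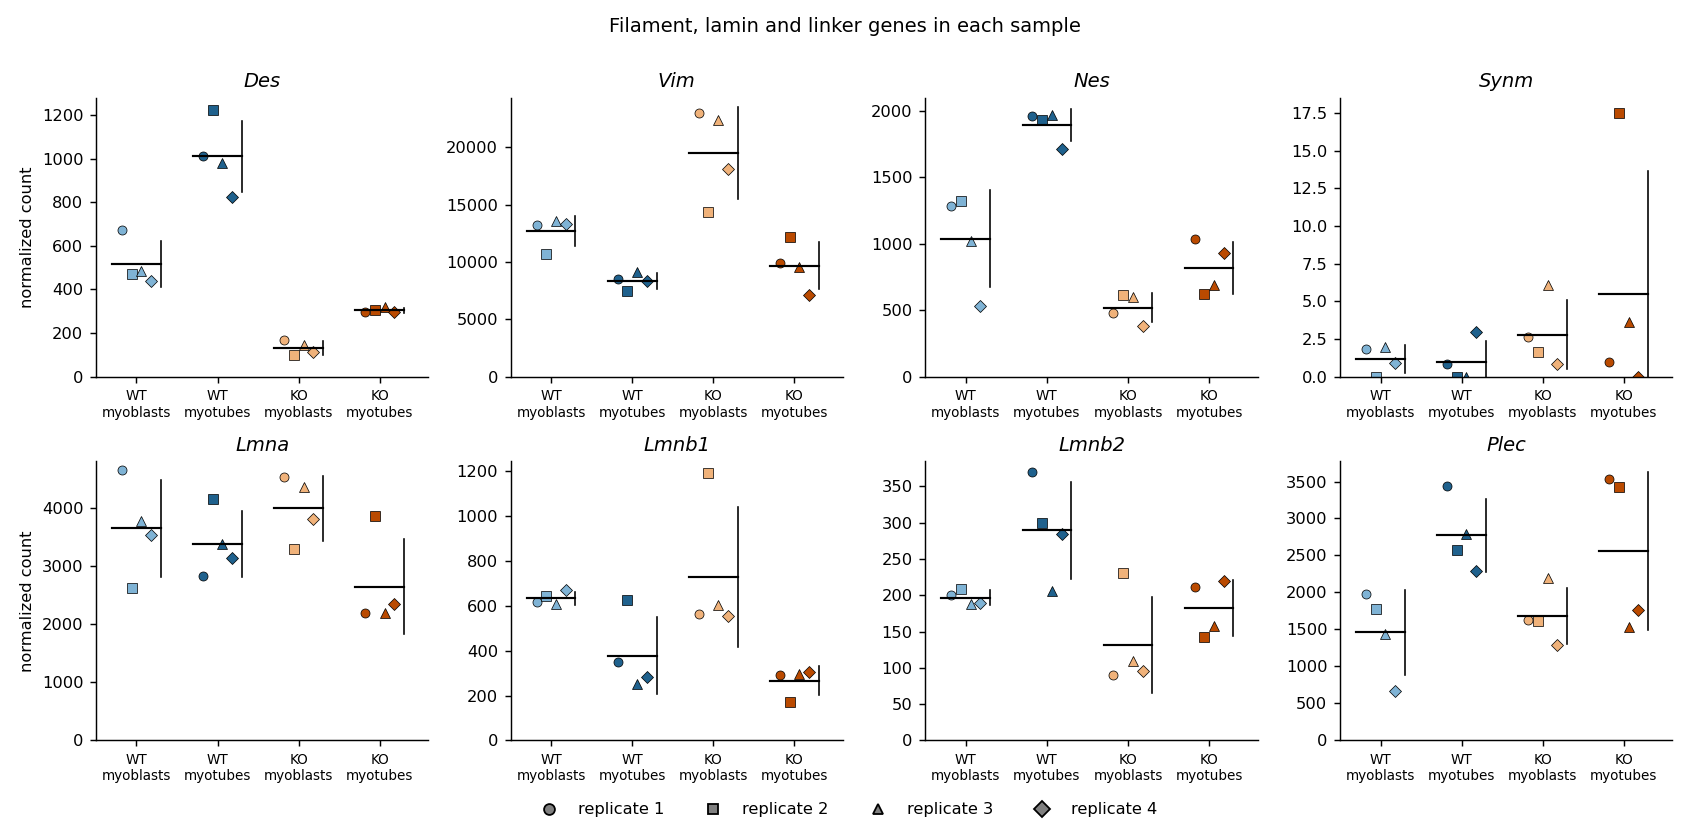
Normalized count (linear axis from 0) of each of the 8 genes in the 16 samples, with 1 panel per gene and 1 marker shape per replicate number. Horizontal lines are group means and vertical lines are ± SD (n = 4). The 4 desmin groups do not overlap one another, whereas synemin stays at or under 17.5 in every sample.

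Desmin, the muscle filament protein, was the member that separated the groups most fully. Its normalized counts were 674, 469.7, 483 and 438 in WT myoblasts and 1010.1, 1223, 981 and 825 in WT myotubes (replicates 1 to 4). In KO myoblasts they were 169.7, 101, 145 and 112, and in KO myotubes 296, 306, 319 and 296. The 4 groups do not overlap and stand in the order KO myoblasts, KO myotubes, WT myoblasts and WT myotubes, so that every KO myotube sample had less desmin mRNA than every WT myoblast sample.

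Desmin rose 1.96-fold on differentiation of WT cells (log2 fold change 0.97 ± 0.18 (SE), limma, adjusted p = 0.000504, higher in 4 of 4 samples) and 2.34-fold in KO cells (log2 1.23 ± 0.18, limma, adjusted p = 1.95e-05, 4 of 4). It was 3.92-fold lower in KO than in WT myoblasts (log2 fold change -1.97 ± 0.18, limma, adjusted p = 3.74e-08) and 3.28-fold lower in KO than in WT myotubes (-1.71 ± 0.18, limma, adjusted p = 9.87e-07). The difference between the 2 genotypes in the change on differentiation was 0.26 on the log2 scale (95% interval -0.27 to 0.78, limma, adjusted p = 0.651). In RNA from whole cultures, fewer cells of a type and less RNA per cell cannot be told apart. The annotation places an antisense gene, Gm15179, over 5.86% of the exonic bases of Des, and the strand setting of the counting is not given in the sources used here.

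The order of desmin across the groups differed from that of the muscle markers. The 10 markers summed to 12936 to 17068 in KO myotubes, above the 1880.4 to 2807 of WT myoblasts, while desmin was lower in KO myotubes (304 ± 11.1, n = 4) than in WT myoblasts (516 ± 107). From KO myoblasts to KO myotubes the marker sum went from at most 24.1 to at least 12936, whereas desmin went from 132 ± 31.3 to 304 ± 11.1. In KO myoblasts 7 of the 10 markers had at most 3 reads in every sample, and desmin still had 122 to 194 reads there.

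**Figure D2:**
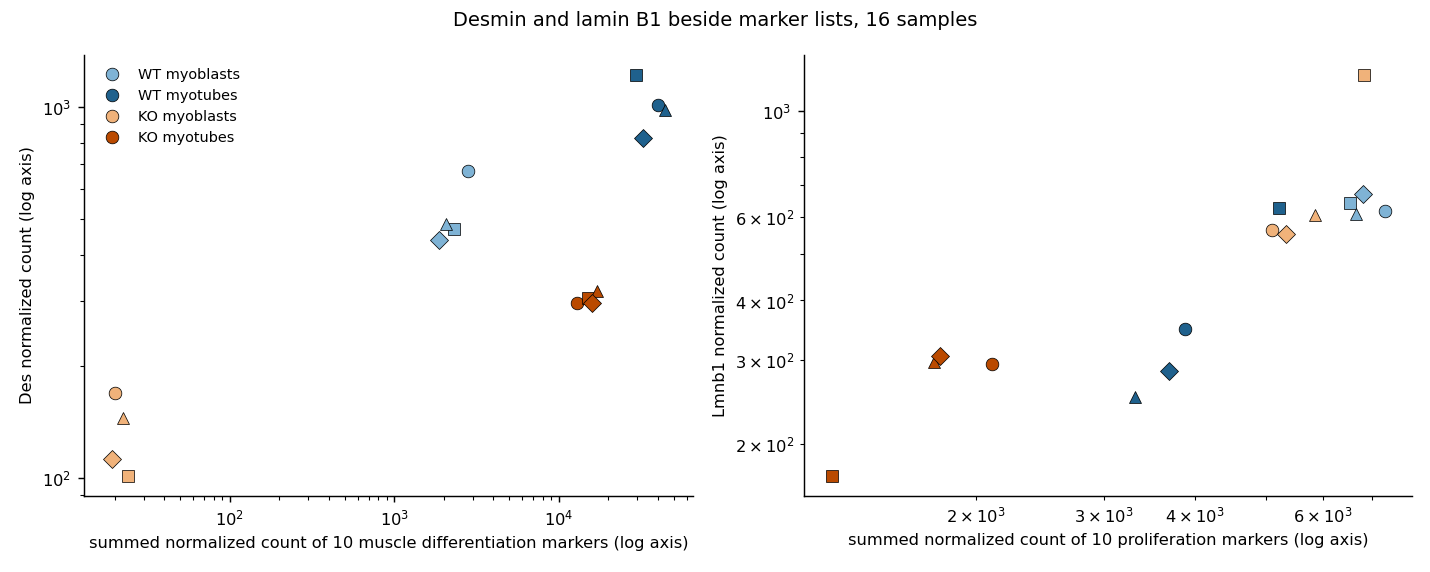
Left, the desmin normalized count against the summed normalized count of 10 muscle differentiation markers. Right, the lamin B1 count against that of 10 proliferation markers. All axes are logarithmic, colours are groups and marker shapes replicate numbers (16 samples). KO myotubes lie to the right of WT myoblasts and below them in the left panel.

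Vimentin, the filament protein of proliferating mesenchymal cells, showed the opposite order at the myoblast stage. Its normalized counts were 13249, 10713, 13597 and 13284 in WT myoblasts and 8482, 7474, 9110.5 and 8316 in WT myotubes. In KO myoblasts they were 22983, 14388, 22414 and 18131, and in KO myotubes 9900.4, 12151, 9569.7 and 7112. All KO myoblast samples were above all other samples, and the KO myotube samples overlapped with WT myotubes and WT myoblasts.

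Vimentin fell 2.01-fold on differentiation of KO cells (log2 fold change -1.01 ± 0.22, limma, adjusted p = 0.00129, lower in 4 of 4). In WT cells the change was -0.60 ± 0.22 with an adjusted p of 0.0508 by limma, which missed the threshold although the groups did not overlap. Without WT myoblast replicate 2, the low one, or without KO myoblast replicate 2, KO myotube replicate 2 or KO myotube replicate 4, which enter through the shared spread, the adjusted p was 0.0313 to 0.0496. KO myoblasts were 1.51-fold above WT myoblasts, again without overlap but not past the threshold (log2 0.60 ± 0.22, limma, adjusted p = 0.0698). The adjusted p there was 0.0284 without KO myoblast replicate 2 and 0.0438 without KO myotube replicate 4. Between the myotubes the difference was 0.19 (95% interval -0.26 to 0.65), and under quantile normalization it was -0.16.

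Nestin, the partner filament of precursor cells and of regenerating muscle, rose with differentiation and was lower in KO cells. Its normalized counts were 1283, 1323, 1019.7 and 529 in WT myoblasts and 1962, 1933, 1969 and 1711 in WT myotubes. They were 476, 614, 601 and 384 in KO myoblasts and 1035, 620.2, 692 and 931 in KO myotubes. WT myotubes stood above all other samples, and the lowest WT myoblast sample, replicate 4, lay among the KO myoblasts.

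The rise of nestin was 1.93-fold in WT cells (log2 0.95 ± 0.24, limma, adjusted p = 0.00711, no overlap) and 1.57-fold in KO cells (log2 0.65 ± 0.24, limma, adjusted p = 0.0409, no overlap). The latter lost its call without WT myoblast replicate 3, KO myoblast replicate 1 or 4, or KO myotube replicate 1 or 4 (adjusted p 0.0505 to 0.143). With both of the shallowest KO myotube samples left out the change was 0.73 (adjusted p = 0.0579). Nestin was 1.92-fold lower in KO than in WT myoblasts (log2 -0.94 ± 0.24, limma, adjusted p = 0.00862, the groups overlapping) and 2.36-fold lower in KO than in WT myotubes (log2 -1.24 ± 0.24, limma, adjusted p = 0.000788, no overlap). The change on differentiation differed between genotypes by -0.30 (95% interval -1.0 to 0.41).

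Desmin and nestin rose on differentiation while vimentin counts were lower in myotubes, and the balance within a sample was followed as the difference of the log2 values of both genes. Read counts of different genes also reflect their length, so only changes of this difference between groups are compared, and no test was run on them. Desmin minus vimentin was -4.30, -4.51, -4.81 and -4.92 in WT myoblasts and -3.07, -2.61, -3.21 and -3.33 in WT myotubes. In KO myoblasts it was -7.07, -7.14, -7.26 and -7.33, and in KO myotubes -5.06, -5.30, -4.90 and -4.58. The ratio of desmin to vimentin was thus 2.98-fold higher in WT myotubes than in WT myoblasts and 4.72-fold higher in KO myotubes than in KO myoblasts. It was 5.93-fold lower in KO than in WT myoblasts and 3.75-fold lower in KO than in WT myotubes. None of these 4 pairs of groups overlapped, and the ratio of KO myotubes overlapped with that of WT myoblasts. Nestin minus vimentin was -3.69 ± 0.70 (SD, n = 4) in WT myoblasts, -2.14 ± 0.14 in WT myotubes, -5.23 ± 0.48 in KO myoblasts and -3.57 ± 0.60 in KO myotubes.

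**Figure D3:**
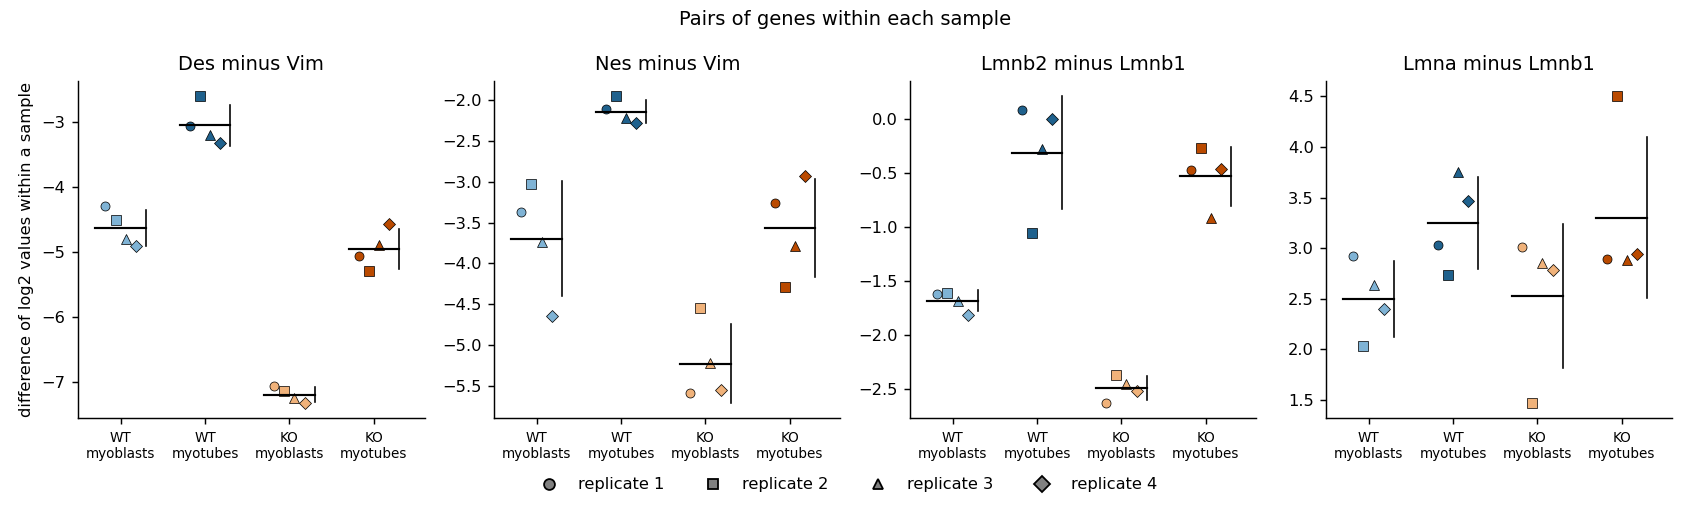
Difference of the log2 values of 2 genes within each sample, for desmin and vimentin, nestin and vimentin, lamin B2 and lamin B1, and lamin A/C and lamin B1. Points are samples, horizontal lines group means and vertical lines ± SD (n = 4). Desmin minus vimentin is lowest in KO myoblasts (-7.33 to -7.07) and highest in WT myotubes (-3.33 to -2.61).

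Synemin, the large partner of desmin at Z-discs and costameres, was at the limit of detection. It had 2, 0, 2 and 1 reads in WT myoblasts and 1, 0, 0 and 3 in WT myotubes. The KO myoblasts had 3, 2, 7 and 1 reads and the KO myotubes 1, 12, 4 and 0. The largest value, a normalized count of 17.5, was that of 1 KO myotube sample. Synemin did not enter the test, no fold is given, and a difference between groups was not detectable at this depth, where 3 reads correspond to a normalized count of 2.49 to 5.99. Of its exonic bases 5.37% and 1.06% lie under Gm45102 and Ttc23 on the other strand.

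Plectin, the linker, had normalized counts of 1981, 1772, 1434 and 669 in WT myoblasts and 3435, 2574, 2786 and 2287 in WT myotubes. The KO myoblasts had 1626, 1615, 2193 and 1296 and the KO myotubes 3531, 3423, 1529 and 1764. The WT groups did not overlap, and the KO myotubes fell into a pair of high and a pair of low samples, of which each pair holds 1 of the 2 samples with the fewest reads. Plectin rose 2.02-fold in WT cells (log2 1.02 ± 0.30, limma, adjusted p = 0.0194). That call was lost without WT myoblast replicate 4, the sample at 669 (log2 0.68, adjusted p = 0.0972), and without WT myotube replicate 1 (0.91, adjusted p = 0.0677). In KO cells the difference was 0.53 (95% interval -0.10 to 1.16, limma, adjusted p = 0.183). KO against WT gave 0.29 (-0.34 to 0.92) in myoblasts and -0.20 (-0.83 to 0.43) in myotubes. These 2 values turned to -0.05 without WT myoblast replicate 4 and to 0.02 without KO myotube replicate 3. Plec shares 1.13% of its exonic bases with Parp10 on the same strand.

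The lamins were described next, beginning with Lmna, whose products lamins A and C are the lamins of differentiated tissues. Its normalized counts were 4669, 2621, 3785 and 3543 in WT myoblasts and 2840.4, 4163, 3383 and 3154 in WT myotubes. They were 4540.0, 3306, 4364 and 3812 in KO myoblasts and 2195, 3878, 2192 and 2349.9 in KO myotubes. Groups overlapped in each of the 4 comparisons, and KO myotube replicate 2 stood apart from the other 3 of its group.

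Lmna fell 1.54-fold on differentiation of KO cells (log2 -0.63 ± 0.21, limma, adjusted p = 0.0278), while in WT cells the difference was -0.09 with an interval of -0.54 to 0.35. The KO call was lost without any of KO myoblast replicates 1, 3 and 4 or KO myotube replicates 1, 3 and 4 (adjusted p 0.0503 to 0.0835). Without both of the shallowest KO myotube samples the fall was -0.86 (adjusted p = 0.00767). The difference between genotypes in this change was -0.53 (95% interval -1.16 to 0.10, limma, adjusted p = 0.372), the smallest adjusted p of the 7 members for the interaction. KO against WT was 0.15 (-0.29 to 0.60) in myoblasts and -0.38 (-0.82 to 0.06) in myotubes. The latter had an adjusted p of 0.209, or 0.0431 without KO myotube replicate 2 (log2 -0.58).

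Lmnb1, the B-type lamin known to decline in senescent cells, had normalized counts of 616, 642, 608 and 671 in WT myoblasts and 348, 627, 251 and 284 in WT myotubes. The KO myoblasts had 562, 1193, 604 and 553 and the KO myotubes 294, 171, 297 and 306. All KO myotubes were below all KO myoblasts, while WT myotube replicate 2 lay within the WT myoblasts. Lmnb1 fell 2.64-fold in KO cells (log2 -1.40 ± 0.27, limma, adjusted p = 0.000357) and 1.79-fold in WT cells (log2 -0.84 ± 0.27, limma, adjusted p = 0.0266). The WT call was lost without any of WT myoblast replicates 2, 3 and 4 or WT myotube replicates 1, 3 and 4 (adjusted p 0.0528 to 0.0973). KO against WT was 0.12 (95% interval -0.43 to 0.67) in myoblasts, or -0.15 without KO myoblast replicate 2, and -0.44 (-0.99 to 0.11) in myotubes. The difference in change between genotypes was -0.56 (-1.34 to 0.22).

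Lmnb1 and markers of cycling cells had the same extreme sample in 3 of the 4 groups. The summed normalized count of 10 proliferation markers was 5101 to 6820.2 in KO myoblasts, 1268 to 2109 in KO myotubes, 6524 to 7289.5 in WT myoblasts and 3308 to 5219 in WT myotubes. Of the 10, 7 were called lower on differentiation in WT cells and 10 in KO cells, beside 9.16% and 16.1% of all genes tested. WT myotube replicate 2 had the highest sum of its group (5219) and the highest Lmnb1 (627). KO myotube replicate 2 had the lowest sum (1268) and the lowest Lmnb1 (171), and KO myoblast replicate 2 the highest sum (6820.2) and the highest Lmnb1 (1193). Between groups the order differed, since 3 KO myotube samples (294 to 306) had more Lmnb1 than 2 of the WT myotube samples (251 and 284) at a lower sum. The part of cycling cells in the Lmnb1 result was not tested.

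Lmnb2, the other B-type lamin, had higher means in myotubes than in myoblasts in both genotypes, opposite in sign to Lmnb1. Its normalized counts were 200.2, 209, 188 and 189.8 in WT myoblasts and 369, 299.6, 206 and 284 in WT myotubes. They were 90.1, 229.9, 109 and 95.9 in KO myoblasts and 211, 142, 157 and 219.8 in KO myotubes. In 3 of the 4 KO myoblast samples Lmnb2 was below every other sample, and KO myoblast replicate 2 was within the range of the other groups.

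No Lmnb2 difference passed the threshold. The log2 values were 0.53 in WT differentiation (95% interval 0.02 to 1.04, limma, adjusted p = 0.127), 0.56 in KO differentiation (0.05 to 1.07, 0.0849), -0.69 for KO against WT myoblasts (-1.20 to -0.18, 0.0605) and -0.66 for KO against WT myotubes (-1.17 to -0.15, 0.0550). Without KO myoblast replicate 2 all 4 passed, with log2 values of 0.53, 0.86, -1.0 and -0.66 and adjusted p of 0.0438, 0.00261, 0.00135 and 0.0129. Without KO myotube replicate 2 the myoblast comparison also passed (adjusted p = 0.0494), and without WT myotube replicate 3 or KO myotube replicate 4 the myotube comparison did (adjusted p = 0.0338 and 0.0418).

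Lmnb2 minus Lmnb1 was compared within each sample. It was -1.62, -1.61, -1.69 and -1.82 in WT myoblasts and 0.08, -1.06, -0.28 and 0.00 in WT myotubes. In KO myoblasts it was -2.63, -2.37, -2.45 and -2.52, and in KO myotubes -0.48, -0.27, -0.92 and -0.47. KO myoblast replicate 2, in which both B-type lamins were high, lay next to the other 3 here. The ratio was 2.58-fold higher in WT myotubes than in WT myoblasts and 3.88-fold higher in KO myotubes than in KO myoblasts, with no overlap. It was 1.75-fold lower in KO than in WT myoblasts, with no overlap, and the myotubes overlapped. Lmna minus Lmnb1 was 2.50 ± 0.38 (SD, n = 4), 3.24 ± 0.45, 2.53 ± 0.71 and 3.30 ± 0.80 in WT myoblasts, WT myotubes, KO myoblasts and KO myotubes, with overlap in each comparison.

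**Figure D4:**
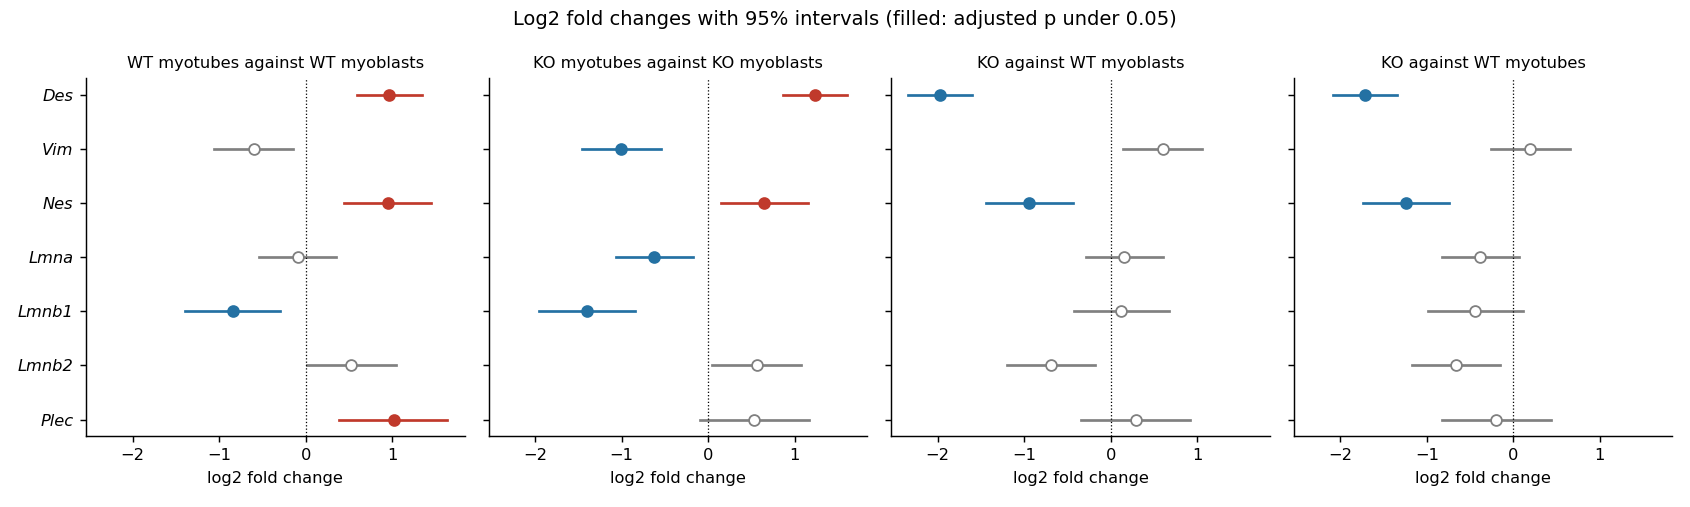
Log2 fold changes of the 7 tested genes (points) with 95% intervals (lines) in the 4 comparisons. Filled red points were called higher and filled blue points lower at an adjusted p under 0.05, and open grey points were not called. Desmin and nestin were called in all 4 comparisons, and KO against WT called no lamin.

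Counted together, 4 of the 7 tested members changed on differentiation of WT cells, where 23.0% of all genes tested were called (13.8% higher, 9.16% lower), with desmin, nestin and plectin higher and Lmnb1 lower. Of all calls there, 60.1% were higher, or 49.7% under quantile normalization. In KO cells 5 changed against a background of 33.4% (17.3% higher, 16.1% lower), with desmin and nestin higher and vimentin, Lmna and Lmnb1 lower. KO against WT called desmin and nestin, both lower, at both stages, where 15.8% of genes were called in myoblasts (7.26% higher, 8.50% lower) and 23.4% in myotubes (9.74% higher, 13.7% lower). Groups did not overlap for 4, 4, 2 and 2 members in these comparisons, beside 28.0%, 27.4%, 26.8% and 19.4% of all genes tested. The median log2 fold change of the 7 was 0.53 in WT and 0.53 in KO differentiation, 0.12 for KO against WT myoblasts and -0.44 for KO against WT myotubes, beside -0.01, -0.02, -0.01 and -0.07 for all genes tested. The interaction of genotype and differentiation called 0 of 7 by limma, against 3.45% of all genes, and 0 of 7 had an unadjusted p under 0.05, as 0 of 7 were called by limma voom. The comparisons share samples, so the counts are not independent of each other.

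The genes whose log2 values followed a member most closely over the 16 samples were named by Pearson's r. It mixes differences between the 4 groups with those within them and is given as a description. For desmin these were Chchd10, a mitochondrial cristae protein (r = 0.979), Ptprf, a receptor tyrosine phosphatase (0.971), and Pnmal2 (0.969). Within groups, after removal of the group means, their r with desmin was 0.282, 0.465 and 0.247. For Lmnb1 they were the mitotic kinase Plk1 (r = 0.962), the securin Pttg1 (0.959) and BC055324 (0.956), which also followed it within groups (0.926, 0.860 and 0.904). Vimentin was closest to Cited2, Immt and Gsta4 (0.945, 0.943 and 0.926), and nestin to Epha3, Mamdc2 and Adam12 (0.961, 0.929 and 0.924). Lmna was closest to Yif1b (0.953), Rbm42 (0.934) and the apoptosis effector Bak1 (0.933), Lmnb2 to Ssu72, Fam49b and Orai1 (0.916, 0.907 and 0.873), and plectin to Lgals3bp, the basement membrane collagen Col4a2 and Hiatl1 (0.938, 0.935 and 0.923). Within groups the r of these genes was 0.698 to 0.769 for vimentin and 0.721 to 0.831 for nestin. It was 0.883 to 0.935 for Lmna, 0.771 to 0.819 for Lmnb2 and 0.855 to 0.910 for plectin. Among the members themselves, the within-group r of largest absolute size was 0.743 for Lmnb1 and Lmnb2, 0.680 for nestin and plectin, and -0.705 and -0.715 for vimentin with Lmnb1 and with Lmnb2 (n = 16 samples that share 4 group means). All these pairs share the scaling of each sample. KO myoblast replicate 2 had the highest Lmnb1 and Lmnb2 and the lowest vimentin of its group. KO myotube replicate 2 had the lowest Lmnb1 and Lmnb2 and the highest vimentin. The r values were not recomputed without these samples.

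Other cytoplasmic filament genes were nearly silent. Of 14 listed (neurofilaments, glial filament protein, peripherin, syncoilin, simple keratins and lens filaments), 1 was tested, the keratin Krt80. It was at 131 ± 28.6 in WT myoblasts, 32.1 ± 18.9 in WT myotubes, 34.8 ± 5.36 in KO myoblasts and 20.5 ± 12.2 in KO myotubes. Krt80 fell on differentiation in WT cells (log2 -2.12 ± 0.38, limma, adjusted p = 0.000437) and was lower in KO than in WT myoblasts (-1.86 ± 0.38, limma, adjusted p = 0.00139).

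Of the 6 plakin relatives of plectin, 2 were tested. Macf1, an actin and microtubule crosslinker, rose in WT cells (log2 0.82, limma, adjusted p = 0.00429) and in KO cells (0.61, limma, adjusted p = 0.0182, or 0.0891 without KO myoblast replicate 4). Dst, dystonin, rose in WT cells (0.67, limma, adjusted p = 0.0283), a call lost without WT myoblast replicate 4 or WT myotube replicates 1 or 3 (adjusted p up to 0.136). Neither was called between genotypes.

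Of 13 tested nuclear envelope partners of the lamins, 3 rose and 2 fell in WT differentiation, and 2 rose and 2 fell in KO differentiation (median log2 fold change 0.35 and -0.02, beside -0.01 and -0.02 for all genes). Over all genes tested 23.0% were called in WT and 33.4% in KO differentiation, so that the 4 of 13 in KO cells were near the background. The lamina-associated Tor1aip1 and the muscle dystrophy gene Tmem43 rose in WT cells (log2 1.12 and 1.03, limma, adjusted p = 0.0115 and 0.0123). Leaving out WT myotube replicate 1 ended both calls, and WT myoblast replicate 4 that of Tmem43 (adjusted p up to 0.0627). Ankle2, which helps rebuild the envelope after mitosis, rose in both WT (0.83, limma, adjusted p = 0.0219) and KO cells (0.93, limma, adjusted p = 0.00776). The WT call was lost without WT myoblast replicates 3 or 4 or WT myotube replicates 1 or 4 (adjusted p up to 0.101). Emerin (Emd), a lamin A partner chosen here after its values were seen, fell in WT and KO cells (log2 -0.60 and -0.63, limma, adjusted p = 0.0127 and 0.00596). Tmpo, which encodes the lamina-associated polypeptides 2, fell in both (log2 -0.50 and -0.65, limma, adjusted p = 0.0252 and 0.00296), and Tor1aip2 rose in KO cells (0.83, limma, adjusted p = 0.000224).

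Between genotypes, Tmem43 was at 54.9 ± 16.9 in WT myoblasts and 145 ± 28.1 in KO myoblasts (log2 1.42 ± 0.28, limma, adjusted p = 0.00105), and at 114 ± 43.6 and 221 ± 90.4 in the myotubes (0.94, limma, adjusted p = 0.0205). The myotube call was lost without WT myotube replicates 2 or 3 or KO myotube replicate 1 (adjusted p up to 0.0815). Tor1aip1 was higher in KO than in WT myoblasts (0.94, limma, adjusted p = 0.0400), lost without WT or KO myoblast replicates 3 or 4, WT myoblast replicate 1 or KO myoblast replicate 2 (up to 0.115). Tmem201 was lower in KO than in WT myotubes (-0.79, limma, adjusted p = 0.0474), a call that 13 of the 16 single omissions ended (up to 0.160), the exceptions being WT myotube replicate 1 and KO myotube replicates 1 and 4.

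The LINC complex joins the lamina to the cytoskeleton through SUN proteins and nesprins, and 5 of its 6 listed genes were tested, of which 2 rose in WT differentiation and 1 rose and 2 fell in KO differentiation, beside 23.0% and 33.4% of all genes called. Sun1 was at 51.9 ± 10.5 in WT myoblasts and 185 ± 73.2 in WT myotubes (log2 1.76 ± 0.30, limma, adjusted p = 0.000272), and at 41.9 ± 14.0 and 109 ± 42.1 in KO cells (1.34 ± 0.30, limma, adjusted p = 0.00187). Sun2 rose in WT cells (0.68, limma, adjusted p = 0.0337), lost without WT myoblast replicates 3 or 4 or WT myotube replicates 1, 3 or 4 (up to 0.154). The nesprin Syne2 fell in KO cells, from 37.1 ± 15.2 to 9.69 ± 1.17 (log2 -1.74 ± 0.35, limma, adjusted p = 0.000563). It was lower in KO than in WT myotubes (-1.02, limma, adjusted p = 0.0368), a call lost without WT myotube replicates 2 or 3 or KO myotube replicates 3 or 4 (up to 0.146). Syne3 fell in KO cells (-1.01, limma, adjusted p = 0.0439), which 9 single omissions ended, namely WT myoblasts 1, 2 and 3, WT myotube 3, KO myoblasts 1, 2 and 3 and KO myotubes 2 and 3 (up to 0.151). Of the 5 genes that farnesylate, cleave and methylate prelamins (Zmpste24, Icmt, Rce1, Fnta and Fntb), 0 were called in any comparison by limma or by limma voom. At an unadjusted p under 0.05 there were 1 in WT and 3 in KO differentiation and 0 in the other comparisons. The share of all genes at that unadjusted threshold is not given here, so these counts cannot be weighed against it.

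**Figure D5:**
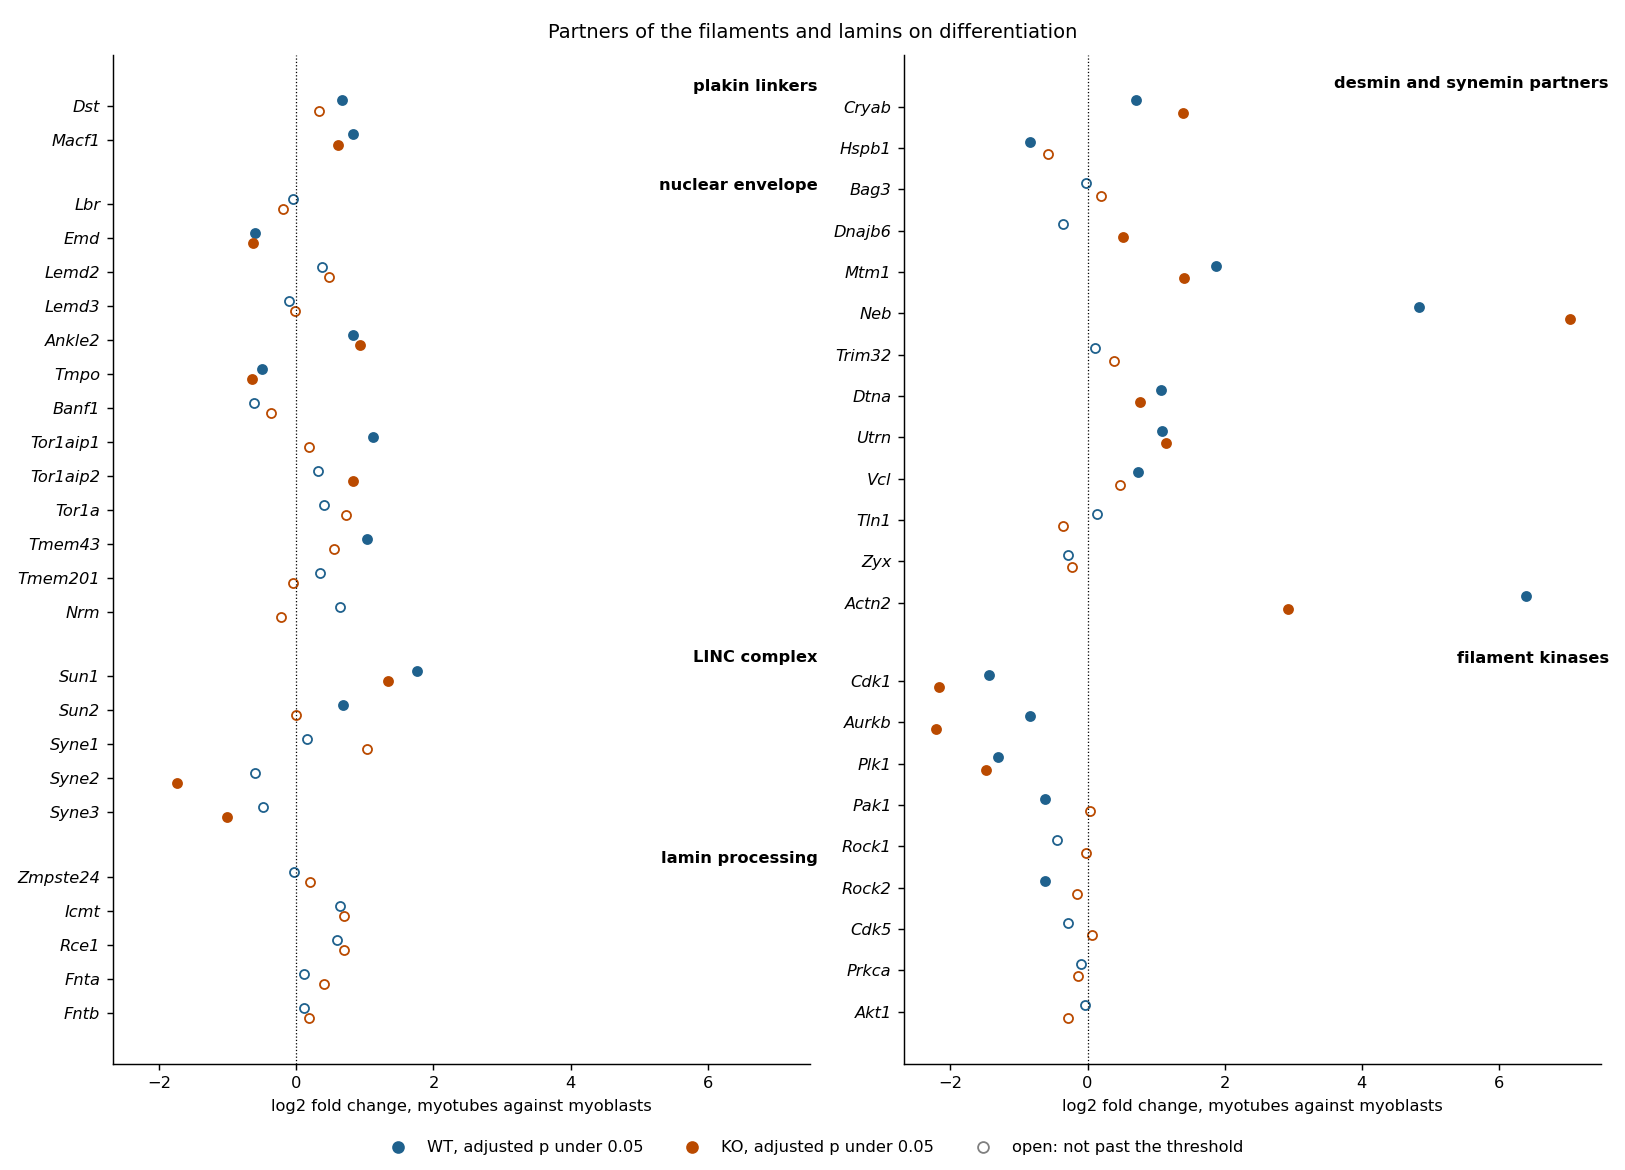
Log2 fold changes on differentiation (myotubes against myoblasts) of the tested genes in 6 lists of filament and lamin partners, blue for WT and orange for KO cells. Filled points passed an adjusted p of 0.05 and open points did not. The values of Neb, Actn2 and Mtm1 depend on the added 1, since they rest on groups with 0 to 3 reads in a sample.

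Of 13 tested partners of desmin and synemin, 7 rose and 1 fell in WT differentiation and 7 rose in KO differentiation (median log2 fold change 0.71 and 0.51), where 13.8% and 17.3% of all genes were called higher. The Z-disc proteins Neb, nebulin, and Actn2, alpha-actinin-2, and the desmin-binding phosphatase Mtm1, myotubularin, led both lists. Neb was at 17.9 ± 10.6 in WT myoblasts and 494 ± 204 in WT myotubes, and had at most 2 reads in any KO myoblast sample and 167 ± 18.8 in KO myotubes. Actn2 had 0 or 1 reads per WT myoblast sample and was at 100.3 ± 25.5 in WT myotubes. It was at 0 in every KO myoblast sample. It was also at 0 in 1 of the 4 KO myotube samples, whose mean of 10.6 ± 7.65 was at least 4.14-fold higher against a floor of 3 reads per sample. Mtm1 was at 1.63 ± 1.14, 7.97 ± 2.39, 7.83 ± 2.03 and 23.5 ± 10.9 in WT myoblasts, WT myotubes, KO myoblasts and KO myotubes.

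The desmin chaperone Cryab, alpha-B-crystallin, rose from 631 ± 32.5 to 1030.1 ± 45.9 in WT cells and from 493 ± 85.1 to 1312 ± 337 in KO cells (limma, adjusted p = 0.00519 and 2.46e-06). It was picked here after its values were seen, and the other chaperones of the list did not all follow it. Hspb1 was the 1 partner called lower in WT differentiation (log2 -0.84, limma, adjusted p = 0.0483). Dnajb6 was called higher in KO differentiation only (0.51, limma, adjusted p = 0.0293), and Bag3 was not called in any comparison. Between genotypes, Neb was lower in KO myoblasts and myotubes (limma, adjusted p = 1.27e-06 and 0.0160, the latter 0.0670 without WT myotube replicate 3), and Actn2 was lower in KO myotubes (limma, adjusted p = 0.000402). The remaining call of this list in myotubes was Trim32, higher in KO than in WT (log2 0.69, limma, adjusted p = 0.00366). Whether the Trim32 call holds with samples left out was not examined. Mtm1 was higher in KO myoblasts (limma, adjusted p = 0.00597) and in KO myotubes (0.0300). The latter call and its rise in KO cells (adjusted p = 0.0215) were lost without KO myotube replicate 2, the former of them also without WT myotube replicates 2 or 4 and the latter without KO myoblast replicates 1 or 3 (up to 0.0960 and 0.0623).

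Of 9 kinases that phosphorylate filaments or lamins, 5 fell in WT and 3 in KO differentiation, and 0 rose (median log2 fold change -0.62 and -0.16). Of all genes 23.0% and 33.4% were called, with 9.16% and 16.1% lower, and the 3 of 9 in KO cells were near the share of all calls. The mitotic kinases led: Cdk1, which phosphorylates lamins as the envelope breaks down, fell in WT and KO cells (log2 -1.43 and -2.16, limma, adjusted p = 0.0105 and 0.000191). Plk1 fell as well (log2 -1.30 and -1.48, limma, adjusted p = 0.00578 and 0.00123), and so did Aurkb, a vimentin kinase (log2 -0.84 and -2.21, limma, adjusted p = 0.0255 and 1.48e-06). The WT call of Aurkb was lost without WT myoblast replicates 1 or 4 or WT myotube replicates 2 or 3 (up to 0.108). Aurkb was also lower in KO than in WT myotubes (log2 -1.34, limma, adjusted p = 0.000854). The other calls between genotypes were Prkca higher and Cdk5 lower in KO myoblasts (0.47 and -0.62, limma, adjusted p = 0.0379 and 0.0312) and Prkca higher and Akt1 lower in KO myotubes (0.42 and -0.55, limma, adjusted p = 0.0498 and 0.0429). They were lost in 6, 7, 14 and 10 of the 16 single omissions. The first 3 kinases are themselves markers of cycling cells, whose summed levels are given above beside Lmnb1, and that part was not tested.

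Markers of other cell types were read beside these genes. The neural genes Sox2, Sox10 and Dcx, listed because nestin is used as a neural precursor marker, were at 0 in all 16 samples, and the fourth of that list, the tubulin Tubb3, was at 17.4 to 37.4 in KO myoblasts, 8.71 to 26.0 in KO myotubes, 11.6 to 27.6 in WT myoblasts and 7.77 to 23.4 in WT myotubes. The fat cell genes Adipoq, Plin1 and Lep were at 0 in all samples and Fabp4 had at most 1 read in any, while Cebpa was at 60.7 ± 2.80 in KO myoblasts, 44.2 ± 7.57 in KO myotubes, 70.5 ± 8.42 in WT myoblasts and 49.1 ± 6.60 in WT myotubes. Neither Tubb3 nor Cebpa was called in any comparison. Of the 5 osteoblast markers, Alpl and Ibsp were at 0 in every sample and Runx2 made up most of the sum. Runx2 was at 97.0 ± 20.9 in KO myoblasts, 52.9 ± 25.1 in KO myotubes, 129 ± 20.9 in WT myoblasts and 61.1 ± 19.7 in WT myotubes, and fell on differentiation in both WT and KO cells (log2 -1.11 and -0.97, limma, adjusted p = 0.0119 and 0.0182). The WT call was lost without WT myotube replicate 1, and the KO call without KO myoblast replicates 1 or 4 or KO myotube replicates 1 or 2 (adjusted p up to 0.0578 and 0.0676). The 6 fibroblast markers, of interest for vimentin, summed to 6.67 to 15.8 in KO myoblasts, 114 to 211 in KO myotubes, 5.00 to 9.23 in WT myoblasts and 23.4 to 94.1 in WT myotubes. Tcf21 was at 0 in every sample, Dpt and Lum had at most 3 reads and Col14a1 at most 8. Pdgfra was not called in any comparison. Dcn alone was at 144 ± 44.1 in KO myotubes, and it was called higher in myotubes than in myoblasts of both genotypes and in KO than in WT myotubes (limma, adjusted p = 7.92e-07, 2.53e-08 and 0.0265). The last of these calls was lost without WT myotube replicate 2 or KO myotube replicates 1 or 3 (up to 0.105). The 8 myoblast and reserve cell markers summed to 824 to 1318 in KO myoblasts, 769 to 1129 in KO myotubes, 1189 to 1483 in WT myoblasts and 1309 to 1529 in WT myotubes. Of the 7 tested, 3 (Myod1, Cd34 and Id2) were called lower and 0 higher in KO than in WT myoblasts. In that comparison 8.50% of all genes were called lower. Their log2 values were -4.81, -3.18 and -1.81 (limma, adjusted p = 9.54e-12, 1.70e-07 and 0.000386). The same 3 were called lower and 0 higher in KO than in WT myotubes, where 13.7% of all genes were called lower. There the log2 values were -1.43, -1.11 and -1.02 (limma, adjusted p = 0.000497, 0.0150 and 0.0290). Myod1 was at 282 ± 63.7 in WT and 9.62 ± 4.70 in KO myoblasts. Pax3 and Myf5 had higher values in KO myoblasts but were not called (0.80 and 0.68). The part of the cell types marked by these lists in the filament and lamin results was not tested.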

How the data were processed

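The values deposited by the authors are on a log2 scale: gene counts of each sample were divided by a factor of that sample, 1 was added and the log2 was taken. This was read from the values, since undoing the log2 step gave whole multiples of 1 step per sample for 100% of values above 0 (tolerance 0.01). That step is 1 read. The design had assumed linear normalized counts, and limma was run on the log2 values without a further log step. By the study's methods, bbduk trimmed the reads, those of ribosomal RNA and phiX were removed, STAR 2.6.0a aligned the rest and HTSeq counted them on genes. The tool that gave the sample factors is not given in the sources used here.

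Genes entered the fit when their normalized count reached 10 in 4 or more samples, which left 10767, fitted with limma 3.58.1 in R 4.3.3 (trended eBayes, 4 group means, 16 samples), with Benjamini-Hochberg adjustment over all of them and a threshold of 0.05. Fold changes are on the scale of log2 of the normalized count plus 1, and the scripts were tested on simulated data. Intervals of fitted values are 95%, and limits from reads cover counting error only. Each result was recomputed with pseudocounts of 0.5 and 5, without a filter and with a minimum of 50, total, quantile and median-ratio scaling, a replicate block, only the 8 samples compared, stricter thresholds (adjusted p under 0.01, absolute log2 fold change of at least 1), sample weights, limma voom and each sample left out. Leaving out KO myotube replicates 2 and 4 together was chosen after seeing the data. The members and lists were chosen with earlier results of these data known. Named genes are all members, up to 3 called genes of largest change per list and comparison, and 3 closest genes per member. Among the partner lists, Emd, Cryab, Hspb1, Dnajb6, Bag3 and Trim32 were named beyond this rule. Promoters came from RefSeq (GRCm38.p6, 6 of 8 members matched) and gene positions from GENCODE M21.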

Additional observations from a re-analysis of the deposited data

Results flagged for a closer look

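In 6 of 32 groups of 4 samples, 1 sample of a member lay farther from the other 3 than Dixon's 95% critical value allows, judged by its gap to the nearest sample over the range of the group. Chance gives about 1 such group in 20. The gap over range was 0.880 for vimentin in WT myoblast replicate 2 (low), 0.860 for nestin in WT myotube replicate 4 (low) and 0.907 for Lmna in KO myotube replicate 2 (high). It was 0.921 for Lmnb1 and 0.863 for Lmnb2 in KO myoblast replicate 2 (both high), and 0.916 for Lmnb1 in KO myotube replicate 2 (low). Of 16 groups of within-sample differences, Lmna minus Lmnb1 stood out in KO myoblast replicate 2 (0.851, low) and in KO myotube replicate 2 (0.964, high).

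The change on differentiation differed between genotypes for 3 of the 48 tested genes of the partner lists by the interaction term of limma, beside 3.45% of all genes tested. Among the marker lists, 10 of 10 muscle differentiation markers were called higher by this term. So were 2 of 7 myoblast and reserve cell markers, and 3 of 10 proliferation markers were called lower. The interaction was 2.21 ± 0.60 (SE) for Neb (adjusted p = 0.0445), -3.47 ± 0.95 for Actn2 (adjusted p = 0.0458) and -1.37 ± 0.37 for Aurkb (adjusted p = 0.0445), on the log2 scale. The Neb and Actn2 values depend on the added 1, because both had at most 2 reads in every KO myoblast sample. That of Actn2 was lost without any 1 of the 12 samples outside KO myotubes (up to 0.105). That of Aurkb was lost in 11 single omissions, namely WT myoblasts 1, 2 and 3, WT myotubes 1, 3 and 4, all KO myoblasts and KO myotube 4 (up to 0.109). That of Neb was lost in 11, namely WT myoblasts 1, 2 and 3, WT myotubes 2 and 4, KO myoblasts 1, 2 and 3 and KO myotubes 1, 3 and 4 (up to 0.105).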

How the results depend on the processing

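The desmin calls kept their direction and side of the threshold under all 30 alternatives, except where a log2 fold change of at least 1 was required in WT differentiation. The number of members called (4, 5, 2, 2 and 0 for WT differentiation, KO differentiation, KO against WT myoblasts, KO against WT myotubes and the interaction) was 3 for KO differentiation without a filter, 2 and 3 for the differentiations at an adjusted p under 0.01, and 1, 3 and 1 for the first 3 comparisons when the absolute log2 change had to reach 1. It was 4 for the myoblasts with sample weights, and 4 with KO myotube replicates 2 and 4 left out together. By limma voom it was 5, 4, 3, 3 and 0, and the share of all genes called by limma voom is not given here. With 1 sample left out the members called numbered 2 to 6, 3 to 6, 2 to 4, 2 to 3 and 0 to 0. All genes called (2474, 3591, 1697, 2521 and 371) became 1269, 2216, 1041, 1349 and 141 at an adjusted p under 0.01, and 1259, 1994, 1018 and 1379 in the first 4 with that size of change. They became 2656 in myoblasts and 1565 in myotubes with only the 8 samples compared, and 4683 in WT differentiation, 3773 in myoblasts and 1221 for the interaction with sample weights. With 1 sample left out they were 1564 to 2949, 2837 to 3723, 1336 to 1942, 1823 to 2656 and 231 to 521. Directions that turned were those of values not called: Lmna in WT differentiation (0.03 without WT myoblast replicate 1, with a range of -0.24 to 0.03 over single omissions), Lmnb1 in KO against WT myoblasts (-0.07 with sample weights, -0.15 to 0.22 over single omissions), Plec in myoblasts (-0.05 to 0.47) and myotubes (-0.38 to 0.02), Vim in myotubes (-0.16 under quantile normalization) and the Lmnb2 interaction (-0.03 under total scaling and voom, -0.02 under quantile normalization, and -0.12 to 0.33 over single omissions). The cause was not tested. Quantile normalization moved the share of higher calls in WT differentiation from 60.1% to 49.7%. After removal of the group means, same-numbered samples of different groups correlated by 0.0330 on average (10 of 24 pairs over 0.1). Differently numbered samples correlated by -0.0108 on the same deviations (17 of 72 pairs over 0.1). The main fit took the numbers as labels only, and these correlations cannot show whether equal numbers share a batch. With the replicate block the members called numbered 4, 5, 2, 2 and 0 and all genes called 2495, 3628, 1678, 2513 and 358, and it changed no member's call. Of 1370 values of the 46 calls of listed genes named by the rule of up to 3 per list and comparison, 1150 kept their call, 220 lost it and 0 turned. Depth limited synemin.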
